A study of Mus musculus with 16 samples.

Results

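The signalling lymphocytic activation molecule (SLAM) family genes Slamf1, Cd48, Ly9, Slamf6, Slamf7, Slamf8, Cd84 and Cd244 lie together on mouse chromosome 1, with the lectin gene Itln1 beside them. These 9 genes were taken by the gene name printed for each non-control probe, which gave 15 probes of the 55681 on the array and 9 of its 34832 gene names. The genes were chosen with earlier results of these data known, among which Itln1 had one of the largest differences between genotypes. The values of deficient against wild-type samples are therefore given for these 9 genes as a description, with no test. Tests are given for the comparison of the slides in the SLAM family genes, for the signalling partners and for the neighbouring genes, whose lists were also drawn up with earlier results known.

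RNA came from B220+ splenic B cells. The deficient mice have lost the 3'RR, an enhancer cluster behind the antibody heavy chain genes on another chromosome, which is noncoding and is read by none of the probes described. In the labels the knockout is of the 129 IgH allele, placed on BALBC, and BALBC is their strain. For the wild-type mice the strain given is 129, so genotype and strain cannot be told apart in any comparison. There were 4 deficient (KO) and 4 wild-type (WT) arrays on each of 2 slides, each with 0.2 µg of total RNA of RIN 9, 1 colour (Cy3) and a low-input labelling kit. The design text gives 4 mice for either genotype, and no label says whether each of the 8 arrays per genotype is a mouse of its own, so the spread between arrays may be partly technical. No age, sex or treatment is given in the labels, and the cells were selected by B220 alone, which plasmacytoid dendritic cells also carry.

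A scaled signal is the log2 processed intensity of a probe minus that of the array's 75th percentile, so a value of 0 is as bright as that percentile. That percentile was 576 to 851 intensity units over the arrays of slide 1 and 596 to 990 over those of slide 2. The 7 B cell markers were measured, and their summed linear signal, in multiples of the 75th percentile, was 897 to 1015 in deficient and 835 to 1084 in wild-type arrays of slide 1, and 674 to 731 in deficient and 580 to 681 in wild-type arrays of slide 2. Of the 15 probes, 11 were well above background on every array, and none was saturated on any array. All 15 passed the filter of 4 arrays well above background, the least detected of them on exactly 4. A probe that is not well above background is called dim.

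SLAM family receptors are small surface proteins of the immunoglobulin superfamily found on blood cells, and most of them bind a copy of themselves on a neighbouring cell. Cd48 and Cd244 are the exception, being ligand and receptor for each other. The tails of most members hold tyrosine switch motifs that bind the adaptors SAP (Sh2d1a) and EAT-2 (Sh2d1b1), which in turn recruit Src family kinases. In B cells and their T cell partners this pathway is known for its part in germinal centre help and in the tolerance of autoreactive B cells. Inbred mice carry this cluster as distinct haplotypes. C57BL/6 carries the one called haplotype 1, whereas 129 and BALB/c are both known as carriers of haplotype 2, which differs in sequence, in gene copies and in Slamf6 splicing.

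Itln1, an intestinal lectin that binds microbial galactofuranose, was bright in wild-type arrays of slide 1 and dim in deficient ones. On slide 2 wild-type arrays were well above background by probes 2 and 3, at lower signals than on slide 1, and probe 1 was dim in both genotypes. The array holds 3 probes for it. Probes 1 and 2 lie at chr1:173448254-173448313 and chr1:173448282-173448341 on the minus strand of mm9 and share 32 bases. Probe 3 has no position in the files and was designed on a cDNA described as intelectin 1. Intelectin genes differ in number between strains, with additional copies known in 129 that C57BL/6 lacks, and the array has 1 probe for such a copy, Itlnb. Over 57 aligned bases Itln1 probe 1 and the Itlnb probe were identical at 53, and the differences were T5A, G14T, G15C and G39A, counted from the 5' end of Itln1 probe 1. The first 30 aligned bases are shown because they let a reader see how close the copies are, with the bases that differ in capitals.
Itln1 probe 1: tgacTtagtaactGGaatgctaatgagcaa
Itlnb: tgacAtagtaactTCaatgctaatgagcaa
Probe 3 is shown because it measures another stretch, with no long run shared with probes 1 and 2.
Itln1 probe 3: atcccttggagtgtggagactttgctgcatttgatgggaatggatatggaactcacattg

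On slide 1, Itln1 probe 2 had scaled signals of -6.71, -5.17, -5.97 and -6.50 in deficient arrays, against 0.95, 0.23, 0.60 and 0.51 in wild-type arrays. All 4 wild-type arrays were well above background and no deficient array was, so the deficient level is only a bound and the signal was at least 38.8-fold lower. Such a bound takes, for each dim array, either the probe's own signal or the faintest signal called above background there, whichever is higher, and sets the bright group's mean over it. On slide 2, probe 2 had -6.03, -4.17, -5.05 and -4.46 in deficient arrays, of which 2 were well above background, against -3.34, -3.21, -3.21 and -3.27 in wild-type arrays. The genotypes did not overlap on either slide, and the wild-type arrays of slide 2 lay between the dim deficient arrays and the bright wild-type arrays of slide 1.

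Itln1 probe 1 had -6.59, -6.53, -6.03 and -6.31 in deficient arrays of slide 1, against -1.59, -2.38, -2.03 and -2.29 in wild-type arrays. It was at least 6.20-fold lower there. On slide 2 it was not well above background on any of the 8 arrays, with -6.88 to -6.10 in deficient and -7.10 to -5.60 in wild-type arrays, so it gives no order of the genotypes on that slide. Itln1 probe 3 had -7.26, -6.81, -6.70 and -6.57 in deficient arrays of slide 1, against -0.65, -1.17, -0.65 and -0.68 in wild-type arrays, and was at least 15.1-fold lower. On slide 2 it had -6.16, -7.03, -7.19 and -1.14 in deficient arrays, against -3.69, -4.03, -3.89 and -4.03 in wild-type arrays. Deficient array 4 of slide 2 was thus the only deficient array above background for this probe, and it stood above every wild-type array of its slide, while it did not stand apart for probe 1 at -6.69. For probe 2 that array had -4.46, below all wild-type arrays. Without it the difference of probe 3 on slide 2, deficient minus wild type, moved to -2.88, against -1.47 with it.

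**Figure D1:**
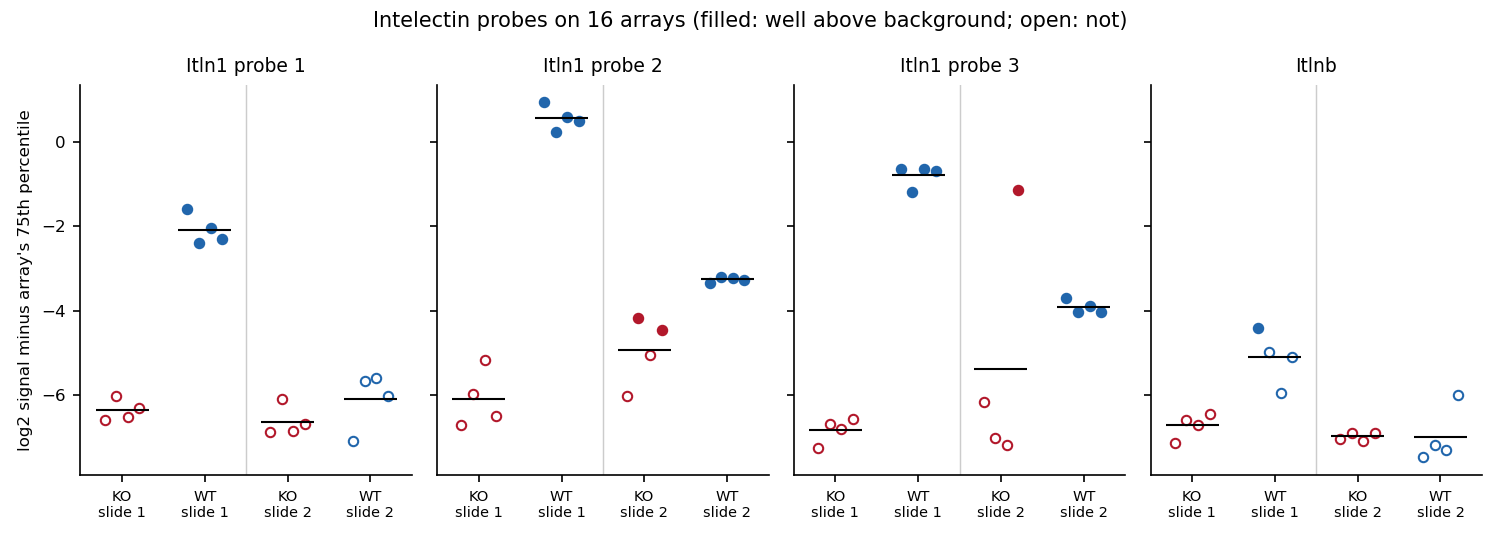
Scaled signal (log2, y axis) of 3 Itln1 probes and the Itlnb probe in each array (points) of the 4 groups of genotype and slide (x axis), with group means as lines; filled points are well above background and open points are not. Wild-type arrays of slide 1 stand above all other arrays for Itln1 probes 1 and 2. For probe 3 deficient array 4 of slide 2, at -1.14, stands apart from its group and just above the lowest wild-type array of slide 1, at -1.17.

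The Itlnb probe was well above background on 1 array, a wild-type array of slide 1, and was left out of the fits. Its scaled signals were -7.13 to -6.45 in deficient arrays of slide 1, against -5.96 to -4.41 in wild-type arrays. On slide 2 they were -7.08 to -6.90 in deficient and -7.48 to -6.0 in wild-type arrays. Itln1 is best known from Paneth and goblet cells of the intestine. Of 8 markers of those cells, 5 were measured, 1 of them higher in deficient mice over both slides (Lyz1, a lysozyme) and none lower. The other 4 (Tff3, Muc2, Spink4 and Zg16) had differences of -0.91 to -0.17 and did not pass. The summed signal was 8.08 to 18.8 in deficient and 3.87 to 9.80 in wild-type arrays of slide 1, nearly all of it Lyz1, and without Lyz1 it was 0.068 to 0.098 in deficient and 0.144 to 0.325 in wild-type arrays. On slide 2 the whole sum was 0.180 to 0.305 in deficient and 0.174 to 0.338 in wild-type arrays of slide 2. Muc2, the goblet cell mucin, was dim on all 8 arrays of slide 1, where Itln1 was bright in wild-type samples. Spink4 and Zg16 were dim there in every deficient sample, and in all but 1 wild-type sample each. Tff3 was dim in all but 1 deficient sample and was detected in 3 wild-type samples. The slide 1 sum without Lyz1 therefore holds many dim signals, and its order of the genotypes is not a measured difference.

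Cd48, the lipid-anchored ligand of Cd244 and Cd2, was slightly higher in deficient arrays on both slides. Its probe 2 (chr1:173635201-173635260, plus strand) had scaled signals of 4.89, 4.89, 5.25 and 5.10 in deficient arrays of slide 1, against 4.71, 4.66, 4.81 and 4.84 in wild-type arrays. Its signals on slide 2 were 5.73, 5.81, 5.72 and 5.54 in deficient arrays, against 5.33, 5.33, 5.40 and 5.52 in wild-type arrays. Every deficient array stood above every wild-type array of its slide, by 1.21-fold in the mean on slide 1 and 1.24-fold on slide 2. Probe 1 of Cd48 (chr1:173629721-173629780) differed by 0.16 on slide 1 and 0.20 on slide 2 (SE 0.10 each), with overlapping arrays on both slides.

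Cd244 (2B4, Cd244a in RefSeq), the receptor for Cd48 on natural killer and myeloid cells, was at a like level in both genotypes. Its probe (chr1:173515388-173515447, plus strand) had 1.93, 1.68, 2.01 and 1.80 in deficient arrays of slide 1, against 2.06, 1.91, 1.45 and 1.59 in wild-type arrays. Slide 2 gave 1.68, 1.86, 1.83 and 1.55 in deficient arrays, against 1.75, 1.64, 1.57 and 1.74 in wild-type arrays. The arrays overlapped on both slides, and the difference over both was 0.08 (SE 0.09, n = 8 arrays per genotype). The probe shares a run of at least 20 bases with probes of Glrx2 and of an unnamed transcript, so its signal may hold other transcripts. Of the natural killer cell markers, 7 of 8 were measured and none passed the test in either direction over both slides. Their summed signal was 10.2 to 28.8 in deficient and 14.7 to 20.1 in wild-type arrays of slide 1, and 2.84 to 3.69 in deficient and 3.05 to 4.25 in wild-type arrays of slide 2. Their part in the Cd244 signal was not tested.

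The receptors that bind themselves and carry switch motifs are Slamf1, Ly9, Cd84, Slamf6 and Slamf7. Slamf6 probe 2 was the one probe of these 5 genes whose deficient arrays lay below all wild-type arrays on both slides. Ly9, a receptor abundant on B cells, was nearly equal. The switch motif is a threonine, a tyrosine and a valine or isoleucine in fixed spacing. The letters ACNNNNTANNNNNNNNTN, read on the strand the probe prints, were found in 2174 of all 55681 probes (3.90%) and in 3 of the 15 probes described here, those being Ly9 probe 2, Cd48 probe 1 and Slamf6 probe 1. With the codons of the motif in a frame free of stop codons, 166 probes (0.298%) and 2 of the 15 matched. Those 2 probes are printed because their letters can be read as the signalling motif, in capitals. Their exons were not looked up here.
Ly9 probe 2: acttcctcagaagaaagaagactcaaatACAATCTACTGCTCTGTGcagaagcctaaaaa
Slamf6 probe 1: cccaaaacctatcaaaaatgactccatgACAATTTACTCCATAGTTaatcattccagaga
Ly9 probe 2 lies at chr1:173523555-173523614 on the minus strand and Slamf6 probe 1 at chr1:173871767-173871826 on the plus strand. A match of letters is a description of the probe, not of a site in use.

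Slamf6 (Ly108), a receptor with splice forms that differ in the cytoplasmic tail, gave different values by its 2 probes. Probe 2 (chr1:173873620-173873679) had scaled signals of 2.09, 2.25, 2.34 and 2.26 in deficient arrays of slide 1, against 3.05, 3.17, 3.32 and 3.46 in wild-type arrays. For slide 2 the signals were 3.04, 2.64, 2.59 and 2.85 in deficient arrays, against 3.70, 3.55, 3.64 and 3.62 in wild-type arrays. All deficient arrays were below all wild-type arrays of their slide, 2.02-fold in the mean on slide 1 and 1.80-fold on slide 2. Probe 1, the one with the motif letters, had 2.65, 2.77, 2.70 and 2.90 in deficient arrays of slide 1, against 3.11, 3.21, 3.27 and 3.45 in wild-type arrays. On slide 2 it had 4.36, 4.32, 4.25 and 4.28 in deficient arrays, against 4.29, 4.03, 4.30 and 4.22 in wild-type arrays. Probe 1 was thus lower in deficient arrays on slide 1, with a difference of -0.50 (SE 0.09), and overlapped on slide 2, where the difference was 0.09 (SE 0.09).

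Within an array, probe 2 minus probe 1 of Slamf6 was -0.64 to -0.37 in deficient arrays and -0.06 to 0.05 in wild-type arrays of slide 1. It was -1.68 to -1.32 in deficient and -0.66 to -0.48 in wild-type arrays of slide 2. The ranges did not overlap on either slide, and the shift of deficient against wild type was -0.51 on slide 1 and -0.94 on slide 2. The same measure for Ly9 shifted by -0.04 on slide 1 and 0.06 on slide 2, and for Cd84 by -0.05 and -0.18, with overlapping arrays each time. For Cd48 it shifted by 0.11 on both slides, with arrays that overlapped on slide 1 and not on slide 2. The signals of the 2 Slamf6 probes therefore differed unequally between the genotypes, which is a measured ratio of signals and gives no level of RNA or of a splice form.

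**Figure D2:**
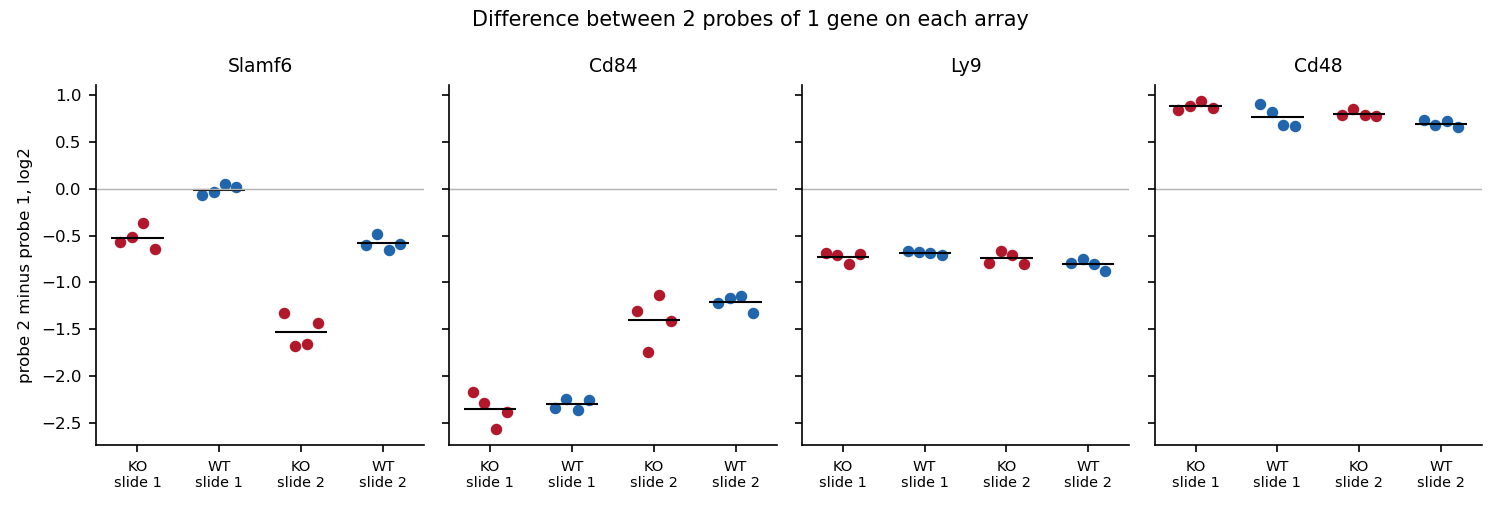
Difference between the scaled signals of 2 probes of 1 gene (probe 2 minus probe 1, log2, y axis) on each array (points) by genotype and slide (x axis), for Slamf6, Cd84, Ly9 and Cd48, with group means as lines. The distance from 0 depends on the probes, so only shifts between groups can be read, and for Slamf6 the deficient arrays lie below the wild-type arrays on both slides.

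Slamf1 (CD150), a receptor of activated lymphocytes and the measles virus receptor in human, was lower in deficient arrays on slide 2. Its probe (chr1:173730343-173730402, plus strand) had 1.20, 1.56, 0.79 and 1.36 in deficient arrays of slide 1, against 0.83, 1.30, 1.53 and 1.29 in wild-type arrays. The slide 2 signals were 0.16, 0.92, 1.01 and 0.72 in deficient arrays, against 1.18, 1.72, 1.49 and 1.26 in wild-type arrays. The arrays overlapped fully on slide 1, where the difference was -0.01 (SE 0.21), and did not overlap on slide 2, where it was -0.71 (SE 0.21). The difference between these slide values, slide 2 minus slide 1, was -0.70 (SE 0.30, limma adjusted p = 0.137).

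Ly9 (CD229) had 2.48, 2.52, 2.70 and 2.69 by probe 1 (chr1:173518744-173518790) in deficient arrays of slide 1, against 2.57, 2.65, 2.58 and 2.84 in wild-type arrays. Its signals on slide 2 were 2.74, 3.01, 3.01 and 2.81 in deficient arrays, against 2.70, 2.79, 2.90 and 2.79 in wild-type arrays. Over both slides the difference was 0.02 (SE 0.06) for probe 1 and 0.03 (SE 0.07) for probe 2, with overlap on each slide. Slamf7 (CRACC), a receptor of plasma and natural killer cells, had 0.38, 0.67, 0.41 and 0.74 in deficient arrays of slide 1, against 0.96, 0.61, 0.73 and 0.50 in wild-type arrays. Slide 2 gave 1.96, 2.23, 2.20 and 1.91 in deficient arrays, against 2.28, 2.20, 2.25 and 2.22 in wild-type arrays. The genotypes overlapped on both slides for Slamf7, with a difference over both of -0.16 (SE 0.08) at chr1:173562534-173562593.

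Plasma cell markers moved differently on the slides. Over both slides 1 of 6 was lower in deficient mice (Irf4, a transcription factor of plasma cell fate) and none higher, on slide 1 2 were higher and 1 lower, and on slide 2 3 were lower. Their summed signal was 241 to 481 in deficient and 147 to 241 in wild-type arrays of slide 1, and 153 to 202 in deficient and 207 to 280 in wild-type arrays of slide 2. Igj, the antibody joining chain, made up 71.8% to 75.5% of the sum in deficient and 57.6% to 67.4% in wild-type arrays of slide 1. Their part in the Slamf7 and Slamf1 values was not tested. In these bulk samples, fewer cells of a type and less RNA per cell cannot be told apart.

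Cd84, a receptor of B cells, platelets and myeloid cells, was lower in deficient arrays on slide 1 and not on slide 2. Probe 1, whose coordinates chr1:173816502-173818732 span more than its length, had 0.93, 0.83, 1.34 and 1.27 in deficient arrays of slide 1, against 1.57, 1.53, 1.51 and 1.55 in wild-type arrays. On slide 2 it had -0.37, -0.24, -0.60 and -0.27 in deficient arrays, against -0.45, -0.45, -0.36 and -0.74 in wild-type arrays. Probe 2 (chr1:173820027-173820086) had -1.23, -1.46, -1.22 and -1.10 in deficient arrays of slide 1, against -0.76, -0.71, -0.85 and -0.70 in wild-type arrays. Slide 2 gave -1.67, -1.98, -1.73 and -1.68 in deficient arrays, against -1.67, -1.61, -1.51 and -2.06 in wild-type arrays. On slide 1 both probes put every deficient array below every wild-type array, by 1.37-fold and 1.41-fold in the mean, and on slide 2 both overlapped.

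Slamf8 (BLAME), a myeloid member whose short tail lacks the switch motif, was higher in deficient arrays of slide 1. Its probe (chr1:174512067-174512126, minus strand) had -0.78, -0.59, -1.41 and -1.44 in deficient arrays of slide 1, against -3.43, -4.07, -2.99 and -4.31 in wild-type arrays. All 8 were well above background and the genotypes did not overlap, with a mean 6.25-fold higher in deficient arrays. The slide 2 signals were -6.45, -7.18, -6.76 and -4.72 in deficient arrays, of which 1 was well above background, and -7.59 to -6.23 in wild-type arrays, of which none was. Slamf8 is thus without a measured difference on slide 2. Of the monocyte and macrophage markers, 10 of 11 were measured and none passed the test on either slide or over both. Their summed signal was 99.4 to 150 in deficient and 78.4 to 165 in wild-type arrays of slide 1, and 19.9 to 26.6 in deficient and 17.8 to 27.4 in wild-type arrays of slide 2. The genotypes overlapped in that sum on both slides, and the part of monocytes and macrophages in the Slamf8 value was not tested. For conventional dendritic cells 5 of 6 markers were measured. Their sums were 8.64 to 14.0 in deficient and 5.46 to 6.69 in wild-type arrays of slide 1, which did not overlap. Itgax alone made up 60.9% to 69.1% of the sum in deficient and 29.6% to 57.4% in wild-type arrays of slide 1. Without Itgax the sums of the genotypes overlapped on that slide. Of the markers, 2 were higher in deficient arrays of slide 1, Itgax (1.56) and Flt3, a growth factor receptor (0.49). Cd209a was lower there (-1.55). On slide 2, where Slamf8 was dim, the sum of all 5 markers was 24.3 to 30.9 in deficient and 18.5 to 19.7 in wild-type arrays, again without overlap. It was almost wholly Flt3 (98.1% to 98.8% in deficient and 96.1% to 97.3% in wild-type arrays). The part of dendritic cells in the Slamf8 value was not tested.

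Slamf9, a relative outside the 9 genes that likewise lacks the switch motif, was measured by 1 probe (chr1:174408455-174408514). It had 1.08, 0.82, 0.89 and 1.22 in deficient arrays of slide 1, against 1.64, 1.25, 1.66 and 1.48 in wild-type arrays, with no overlap. Its signals on slide 2 were -1.97, -2.46, -1.78 and -2.38 in deficient arrays, against -1.83, -2.26, -1.90 and -2.02 in wild-type arrays. Its difference over both slides was -0.32 (SE 0.11, limma adjusted p = 0.062), which did not pass the threshold of 0.05.

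**Figure D3:**
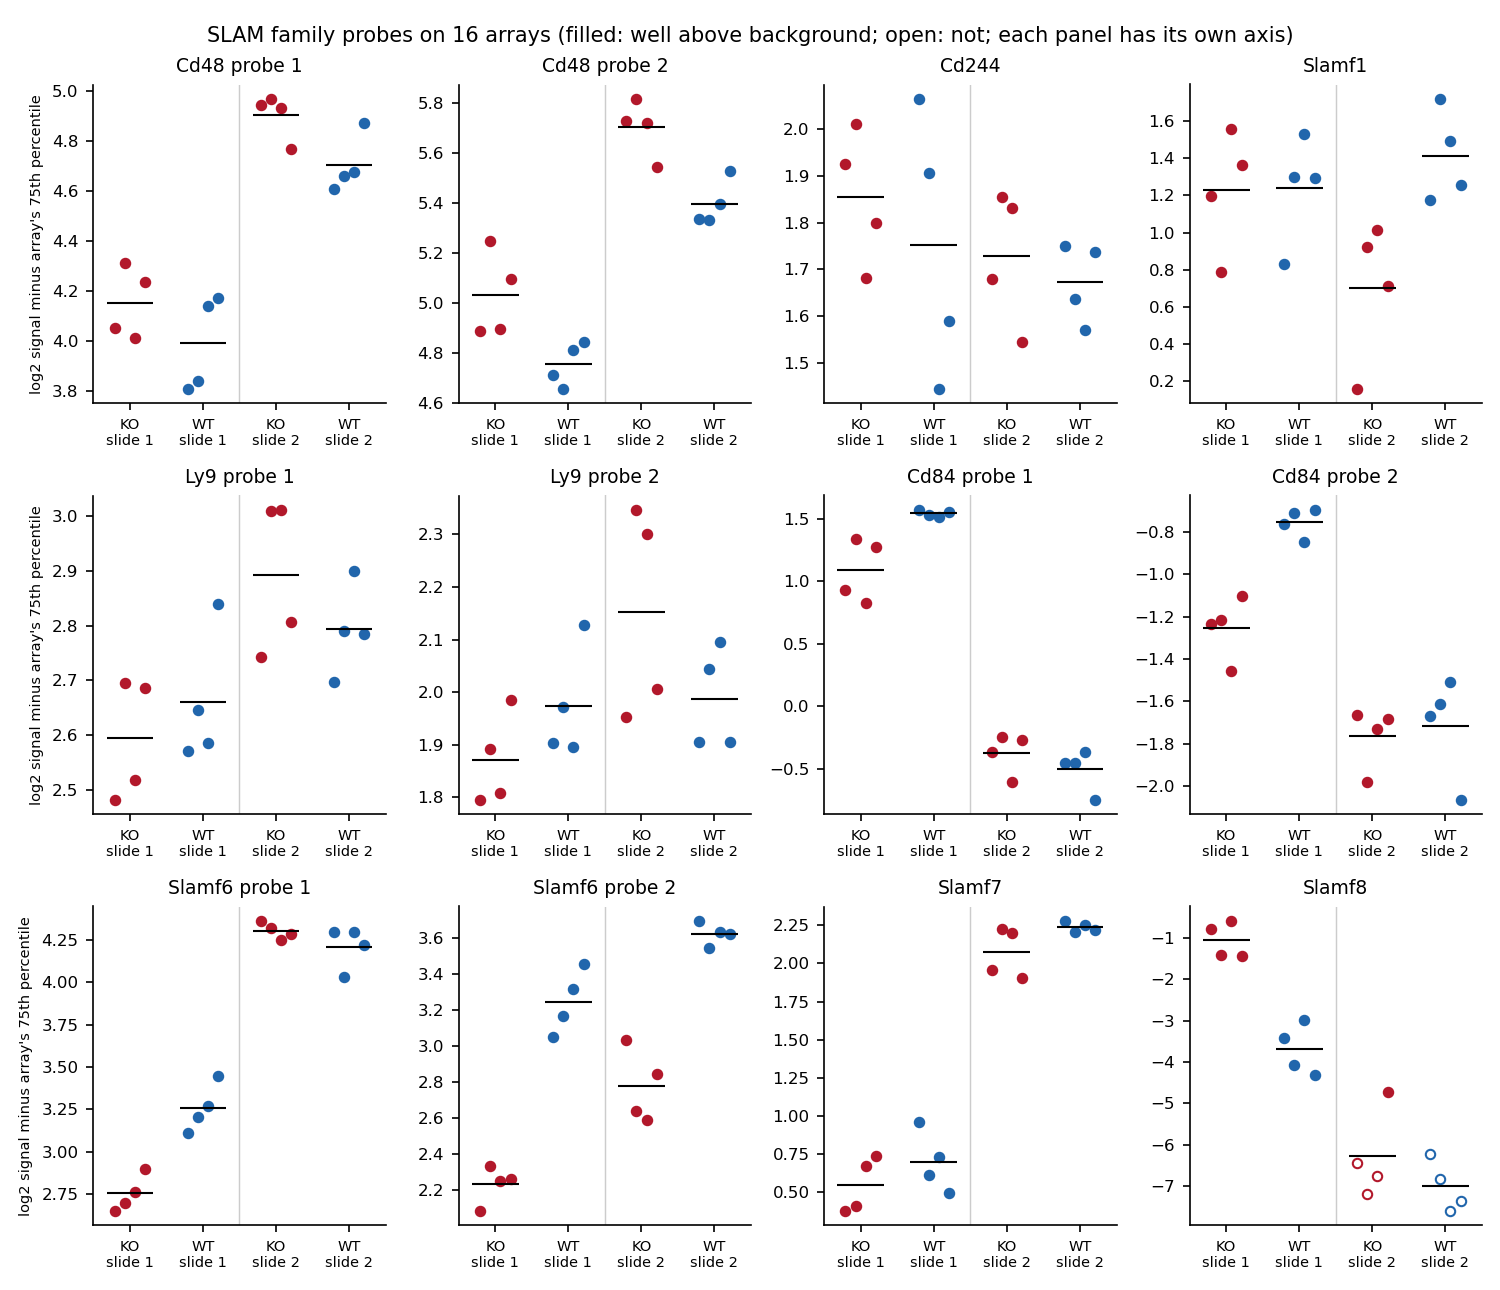
Scaled signal (log2, y axis, its own scale in each panel) of the 12 SLAM family probes in each array (points) of the 4 groups of genotype and slide (x axis), with group means as lines; filled points are well above background. Cd48 probe 2 is higher and Slamf6 probe 2 lower in deficient arrays on both slides, while Ly9 and Cd244 overlap on both.

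Counted over the 15 probes, 8 had a limma adjusted p under 0.05 for deficient against wild type over both slides, beside 16.8% of the 32874 probes tested. Of the 8, 2 were higher and 6 lower, beside 7.58% and 9.21% of all probes. On slide 1 it was 9 of 15, beside 23.3%, with 2 higher beside 9.19% and 7 lower beside 14.1%. On slide 2 the count was 2 of 15, beside 7.46%, with none higher beside 3.65% and 2 lower beside 3.81%. Arrays of the genotypes did not overlap for 9 of 15 probes on slide 1, beside 21.6% of all probes, and for 4 of 15 on slide 2, beside 22.8%. They did not overlap on both slides in 1 direction for 3 of 15 (Cd48 probe 2 higher, Slamf6 probe 2 and Itln1 probe 2 lower), beside 3.78%. The genes were chosen with that comparison known, so nothing is read from these counts. The median difference of the 15 probes over both slides was -0.16, and that of all probes tested was -0.03.

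**Figure D4:**
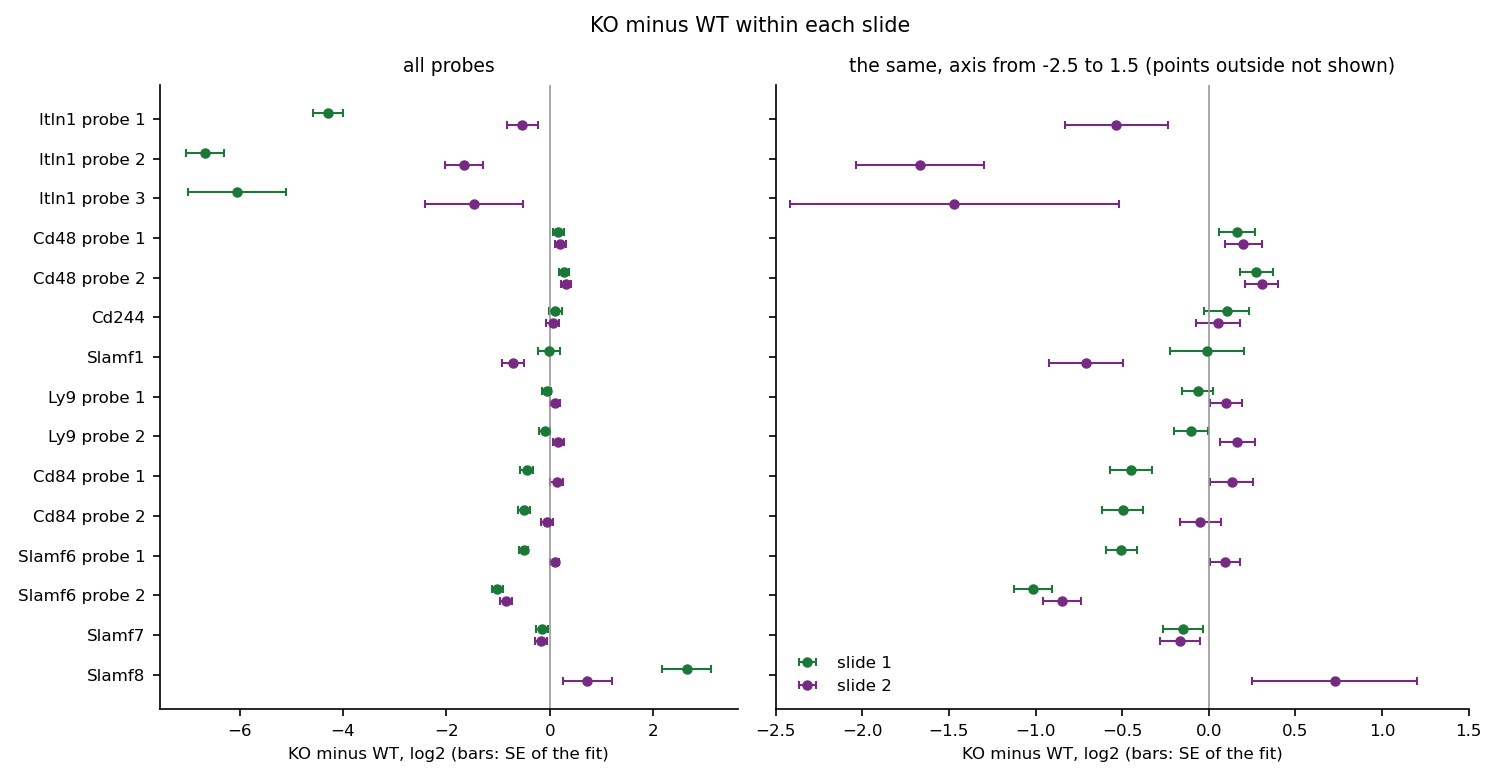
Deficient minus wild-type difference (log2, x axis) with the SE of the fit as bars for each of the 15 probes (y axis), on slide 1 and slide 2, over the full range on the left and between -2.5 and 1.5 on the right. The Itln1 probes and Slamf8 differ by more than 2 on slide 1 and by less on slide 2, and Slamf6 probe 2 is close to -1 on both.

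Whether the genotype difference depended on the slide was tested as the difference on slide 2 minus that on slide 1, in 1 limma model over all 16 arrays with Benjamini-Hochberg adjustment over 32874 probes. Of the 15 probes, 5 passed, beside 13.9% of all probes. All 5 had a positive value, beside 8.72% of all probes, and none a negative one, beside 5.14%. The 3 probes of Itln1 are among the 5, and nothing is read from them, because the slide values of Itln1 were among the results known when it was chosen. Their values, given with no test, were 4.99 (SE 0.52) for probe 2, 3.76 (SE 0.42) for probe 1 and 4.58 (SE 1.34) for probe 3. Probe 1 was well above background on the 4 wild-type arrays of slide 1 and on no other array, so it passed the filter through that group alone. With dim signals raised to the floor of each array the values were 3.86 for probe 2, 2.94 for probe 1 and 3.81 for probe 3. Without the deficient array that stood apart, probe 3 had 3.17. Of the 12 SLAM family probes, 2 passed, Slamf6 probe 1 and Cd84 probe 1. Slamf6 probe 1 differed between slides by 0.60 (SE 0.12, adjusted p = 0.00914), from a difference of 0.09 on slide 2 and of -0.50 on slide 1, and it passed whichever 1 array was left out. Slamf6 probe 2 did not pass, with 0.17 (SE 0.15, adjusted p = 0.504). Cd84 probe 1 differed by 0.58 (SE 0.17, adjusted p = 0.0412), from 0.13 on slide 2 and -0.45 on slide 1, but leaving out any 1 of 12 of the 16 arrays ended the call (adjusted p 0.0563 to 0.0822). Slamf8 had -1.92 (SE 0.67, adjusted p = 0.0724) and Cd84 probe 2 had 0.45 (SE 0.17, adjusted p = 0.088), and neither passed.

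Between slides, averaged over the genotypes, 11 of the 15 probes changed, beside 81.5% of all probes. Of the 11, 6 were higher on slide 2 and 5 lower, beside 53.2% and 28.3%. The median of all probes was itself 0.37 higher on slide 2. Slamf7 was 1.53 (SE 0.08, limma adjusted p = 2.49e-10) and Slamf6 probe 1 1.25 (SE 0.06, adjusted p = 1.26e-10) higher on slide 2, and Cd48 was 0.73 and 0.66 higher by its 2 probes (SE 0.07 each). Slamf6 probe 2 was 0.46 higher, close to the median of all probes, and Ly9 probe 1 was 0.22 higher, below it. Scaled by each array's median instead, Slamf6 probe 2 had 0.13 (adjusted p = 0.216) and Ly9 probe 1 turned to -0.12 (adjusted p = 0.153). Slide 2 minus slide 1 was -1.75 (SE 0.09, adjusted p = 1.18e-10) and -0.74 for the probes of Cd84. Slamf8 was dim on 7 of the 8 arrays of slide 2, and with dim signals at the floor its difference was -2.70 (SE 0.18, adjusted p = 1.81e-09). For Itln1 a mean over the genotypes hides a move measured in wild-type arrays alone. By probe 2 wild-type arrays averaged -3.26 on slide 2 and 0.57 on slide 1. Deficient arrays averaged -4.93 on slide 2, where 2 were well above background, and -6.09 on slide 1, where none was. No move is therefore measured in deficient arrays. Macrophage markers were lower on slide 2 in both genotypes, 10 of 10. Their sums were 17.8 to 27.4 on slide 2 and 78.4 to 165 on slide 1 over both genotypes. C1qa and C1qc, complement genes of macrophages, were dim on all 8 arrays of slide 2. Itgam moved little, with means of 3.90 in deficient and 3.73 in wild-type arrays of slide 2, against 4.31 and 3.92 on slide 1. Other lists fell as well, with 7 of 7 natural killer, 6 of 6 plasmacytoid dendritic and 3 of 3 erythroid markers lower in both genotypes. So did 4 of 5 marginal zone B, 4 of 6 granulocyte and 5 of 7 B cell markers. Conventional dendritic (3 of 5), plasma (3 of 6), platelet (1 of 2) and intestinal cell markers (2 of 5) were mixed. Of the T cell markers 9 of 10 were also lower on slide 2 in both genotypes. Thy1 was the exception, with means of 5.91 in deficient and 5.99 in wild-type arrays of slide 2 and 1.24 in deficient and 1.29 in wild-type arrays of slide 1. The slides differ in samples and in scan, which cannot be told apart, and the part of these cells in the SLAM values was not tested.

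The proteins that carry the SLAM signal were taken as a list of 28 genes, of which 27 were measured. Of these, 4 (14.8%) passed the test of deficient against wild type over both slides, beside 17.1% of all 22733 genes by their brightest probe. Of them 2 were higher and 2 lower, beside 7.44% and 9.66% of all genes. The median difference was 0.00, beside -0.03 over all genes. Dok2, a docking protein that dampens receptor signals, fell by 0.74 (SE 0.18, limma adjusted p = 0.0119), and its slide 1 and slide 2 differences were -1.33 and -0.14. Fyn, the kinase recruited by SAP, fell by 0.37 (SE 0.10, adjusted p = 0.0235), the differences by slide being -0.57 and -0.17. Lck, a Src family kinase of T cells, rose by 0.32 (SE 0.08, adjusted p = 0.0147), of which slide 1 showed 0.04 and slide 2 0.60. Itgb2, the integrin beta chain of leukocytes, rose by 0.17 (SE 0.05, adjusted p = 0.0269), of which slide 1 showed 0.33 and slide 2 0.01. With the slides as an additive block instead of 4 group means, Fyn alone of the 27 passed, and Dok2 (adjusted p = 0.0508), Lck (0.0665) and Itgb2 (0.114) did not. Fyn in turn did not pass with each array scaled by its median (-0.33, adjusted p = 0.0802). Each of the 4 calls was thus lost under 1 or more of the alternatives. Of the phosphatases, which include the switch motif partners Inpp5d and Ptpn6, none of 4 passed.

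Of the adaptors, Sh2d1a (SAP) was above background on all 8 arrays of slide 1 and on no array of slide 2. Its means were -2.12 in deficient and -2.29 in wild-type arrays of slide 1, and the difference over both slides was 0.28 (SE 0.21, adjusted p = 0.396). Sh2d1b1 (EAT-2) averaged -1.12 in deficient and -0.62 in wild-type arrays of slide 1 and -4.33 in deficient and -4.91 in wild-type arrays of slide 2, with a difference over both slides of 0.04 (SE 0.25, adjusted p = 0.937). Sh2d1b2 was not above background on enough arrays to be tested. SAP is chiefly a T and natural killer cell protein. Of 10 T cell markers, 1 was higher and 1 lower in deficient mice over both slides, with sums of 12.2 to 17.9 in deficient and 13.6 to 15.99 in wild-type arrays of slide 1, and of 56.0 to 100 in deficient and 56.6 to 93.0 in wild-type arrays of slide 2. Thy1 alone made up 90.1% to 93.9% of the sum in deficient and 89.8% to 92.4% in wild-type arrays of slide 2. Without Thy1 the sums were 10.5 to 13.9 in deficient and 11.7 to 12.8 in wild-type arrays of slide 1, and 4.71 to 6.12 in deficient and 4.69 to 7.76 in wild-type arrays of slide 2. Cd3g and Icos were dim on all 8 arrays of slide 2. Their part in the Lck and Fyn differences was not tested.

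Genes around the cluster differed between the genotypes in both directions. On chromosome 1, from 1 Mb before the first to 1 Mb after the last of the placed probes, which together span 1064 kb, 89 other gene names had a probe and 67 were measured. Of these, 31 passed the test over both slides (18 higher, 13 lower, 46.3%), beside 17.1% of all genes. The sign was the same on both slides for 26 of the 31, but the test averages the slides and so favours such genes. The like share of all genes was not counted, and nothing is read from the 26. Between the first and the last placed probe 9 of 21 measured genes passed, and outside that stretch 22 of 46. On slide 1 30 of the 67 passed, beside 23.3% of all probes, and on slide 2 21, beside 7.46% of all probes. Genes entered this list by position, in a window set around genes that were themselves chosen with results known. The strain entry and the genotype go together in the labels, so none of these shares can be assigned to the deletion or to the strain.

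Over both slides some of these neighbours differed by more than any SLAM receptor. The largest value of those receptors was 1.685 for Slamf8, which was nearly all dim on slide 2. Vsig8, an immunoglobulin-domain gene 1046 kb after Itln1 and next to Slamf8, averaged -5.90 in deficient and -2.32 in wild-type arrays of slide 1, and -6.17 in deficient and -2.43 in wild-type arrays of slide 2. It was not above background on any deficient array and was on all 8 wild-type arrays, so it was lower by at least 5.24-fold on the first slide and 5.67-fold on the second (adjusted p = 3.46e-07 over both). Dusp23, a phosphatase gene on the other side of Slamf8, rose by 2.41 (SE 0.13, adjusted p = 2.89e-08), its differences being 2.30 for slide 1 and 2.52 for slide 2. Tagln2, an actin-binding protein, rose by 1.25 (SE 0.06, adjusted p = 7.2e-09), which is less than the value of Slamf8. Slamf8, which lies between Vsig8 and Dusp23, was higher in deficient arrays of slide 1, by 2.64.

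Next to Itln1, a predicted gene whose probe starts 2.41 kb before Itln1 probe 1 was lower in deficient mice. It averaged -6.69 in deficient and -3.16 in wild-type arrays of slide 1, and -6.30 in deficient and -4.57 in wild-type arrays of slide 2, and was dim on all 8 deficient arrays and well above background on 4 wild-type arrays of slide 1 and 3 of slide 2. The bound on its difference was 2.93-fold lower for the first slide and 1.29-fold lower for the second, as at-least values. With the dim signals as measured, the difference over both slides was -2.63 (limma adjusted p = 4.93e-05). With dim signals raised to the floor of each array it was -0.98 (SE 0.20, limma adjusted p = 0.00424). The other genes of the window with a difference of at least 1 were farther out. Before Itln1 they were Ppox, an enzyme of haem synthesis (1.15), 1700009P17Rik (1.07), Fcgr2b, the inhibitory IgG receptor of B cells (1.33), and Fcrla, an Fc receptor relative inside B cells (1.30). Fcgr2b and Fcrla differed between the slides, with 2.69 and 2.50 on slide 2 and -0.03 and 0.10 on slide 1 (test of the difference, adjusted p = 1.24e-07 and 0.000137). After Slamf8 they were the DNA sensor Aim2 (-1.34) and, of the pyrin and interferon-inducible cluster there, Gm4955 (4.25), Pydc4 (4.13) and an unnamed transcript (2.40). Pydc4 was dim on every wild-type array of slide 2. The unnamed transcript was dim on every wild-type array of both slides and on all but 1 deficient array of slide 2. The sizes given for these 2 genes therefore rest partly on dim signals.

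**Figure D5:**
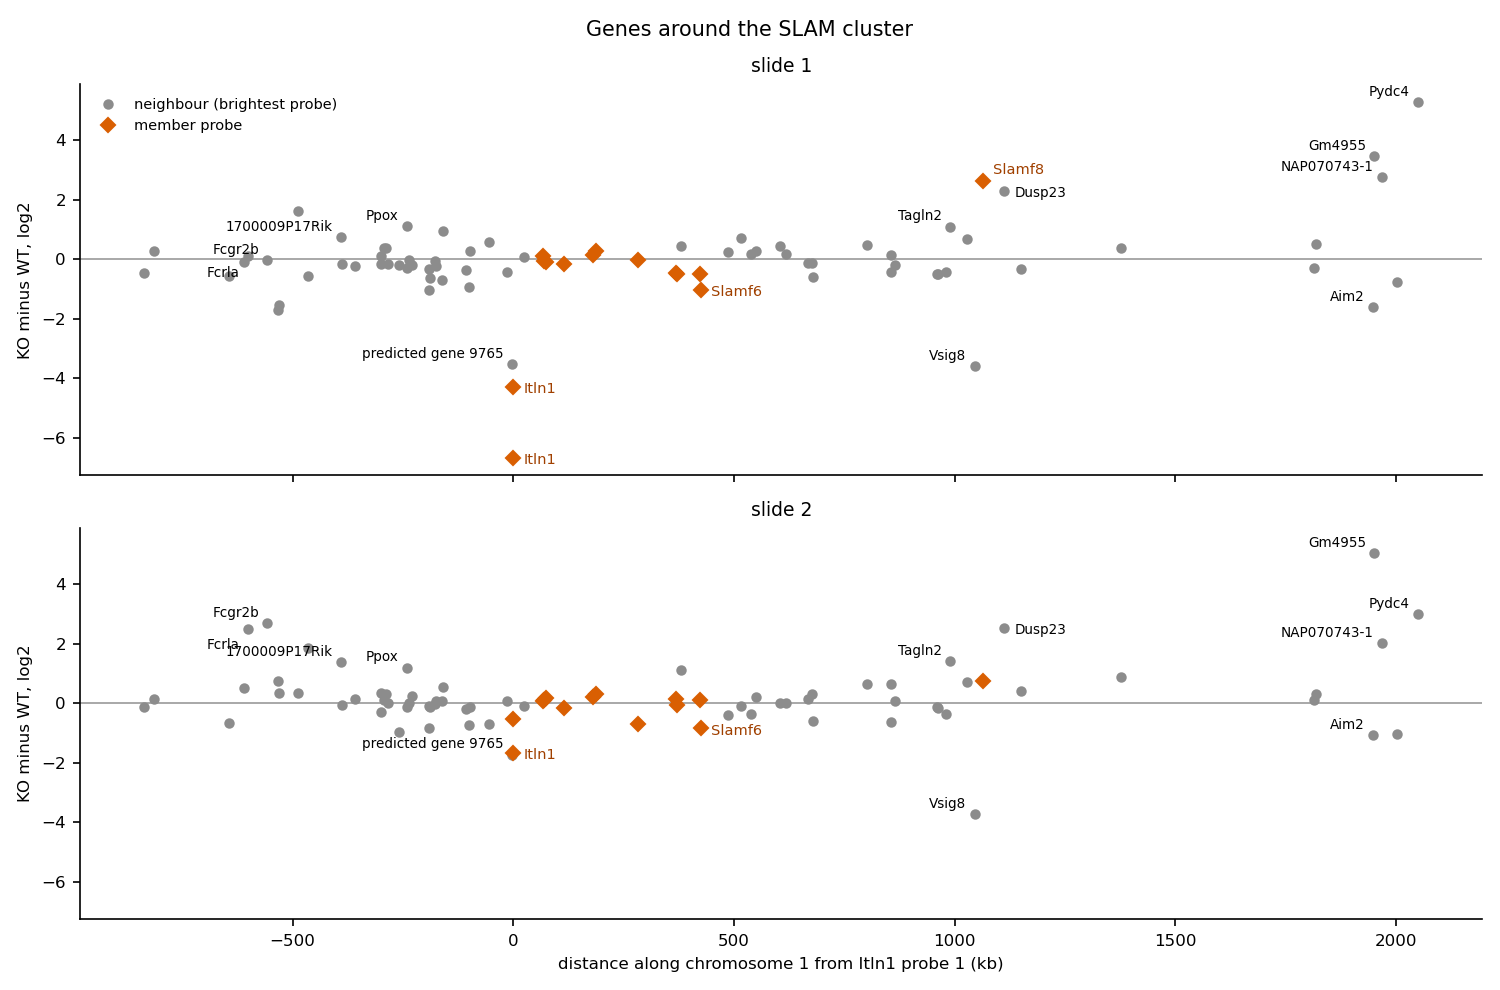
Deficient minus wild-type difference (log2, y axis) of member probes (diamonds) and of 67 neighbouring genes by their brightest probe (circles) against distance along chromosome 1 from Itln1 probe 1 (kb, x axis), on slide 1 (upper panel) and slide 2 (lower panel). Members other than Itln1, Slamf6 and Slamf8 stay within 1 of the zero line, and Vsig8, Dusp23, Gm4955 and Pydc4 keep their side of it on both slides.

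Over the 16 arrays, the signals most like each gene's brightest probe were found by Pearson's r, which is given as a description because all probes share the arrays and the slide difference. Itln1 probe 2 was most like an unnamed, unplaced probe (r = 0.955) and the interferon-inducible genes Ifi202b (0.946) and Ifi203 (0.940) on the same chromosome. Slamf8 was most like Cfb, complement factor B (0.975), the secreted phospholipase Pla2g2d (0.973) and Apol9b (0.972). Slamf6 probe 1 was most like Sec11a (0.995), Slamf7 like a noncoding transcript on chromosome 3 (0.991) and Srp19 (0.991), and Cd84 probe 1 like Map3k3 (0.994). Cd48 probe 2 was most like Fancc (0.974). For Slamf1, Ly9 and Cd244 the highest values were lower, at 0.826 (Pdgfrb), 0.893 and 0.882.

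As for the haplotypes, the probes follow a C57BL/6 genome (mm9), and the strains named for both genotypes are known as carriers of the other haplotype. A base that differs under a probe can change its signal with no change of RNA. The deposited files hold no genotype of these mice at the cluster, so the part of sequence and copy differences in the values of Itln1, Slamf6 and the neighbours was not tested.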

How the data were processed

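Scanner output of 16 arrays was analysed. Per the file headers, the authors extracted each spot's intensity with Agilent Feature Extraction 10.7.3.1, which subtracted background and detrended within an array, and coordinates follow mm9. The authors also deposited a table of log2 values, scaled within each slide (column medians 5.58 to 5.60 on slide 1 and 6.49 to 6.50 on slide 2), used within slides only as an alternative. The submitters' processing notes name limma for 8 samples. Here the log2 processed intensity minus the array's 75th percentile over non-control spots was used, outlier spots were left out, and a probe was kept if it passed the scanner's background test on 4 or more of the 16 arrays (32874 of 55681). On slide 1 26041 to 29231 probes were well above background on an array, and on slide 2 29954 to 34174. A single model of 4 group means in limma 3.58.1 (R 4.3.3) gave every SE and adjusted p (Benjamini-Hochberg over all kept probes, threshold 0.05), and was tested on simulated data. The number of arrays limits the precision. The brightest probe stood for a partner or neighbour gene. Fixed rules named all probes of the 9 genes and their relatives, partners past the threshold and the adaptors, neighbours past it with a difference of at least 1, and the 3 likest probes. The members and lists were chosen with earlier results of these data known. The marker lists were of B, T, natural killer, macrophage, both dendritic, plasma, granulocyte, platelet, erythroid, marginal zone B and intestinal cells. Those not given with the results had these counts over both slides in deficient mice. Of 6 plasmacytoid dendritic cell markers none passed, of 5 conventional dendritic cell markers 1 was higher and 1 lower, of 6 granulocyte markers 1 was higher, of 2 platelet markers none passed, of 3 erythroid markers 2 were higher, of 5 marginal zone B cell markers 3 were lower, and of 7 B cell markers 1 was higher. Symbols were updated through RefSeq (GRCm38.p6), which differed for Cd244 alone among the placed probes.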

Additional observations from a re-analysis of the deposited data

Results flagged for a closer look

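Among 60 groups of 4 arrays of the probes described, 2 held an array far from the other 3, and chance gives about 1 such group in 20. Both were of Itln1 probe 3. Deficient array 4 of slide 2 was the highest of its group at -1.14, with the others between -7.19 and -6.16, and wild-type array 5 of slide 1 was the lowest of its group at -1.17, with the others between -0.68 and -0.65. The deficient array was not far from its group for the other Itln1 probes.

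The deficient minus wild-type difference was not the same on the 2 slides for 5 probes, tested as slide 2 minus slide 1 in limma. For Itln1 the slide values were known when the gene was chosen, so its values of 4.99 (probe 2), 3.76 (probe 1) and 4.58 (probe 3) are a description. Probe 1 passed the filter through the wild-type arrays of slide 1 alone, and the call of probe 3 was lost when any 1 of 11 of the 16 arrays was left out (adjusted p 0.0508 to 0.066). The value was 0.60 (adjusted p = 0.00914) for Slamf6 probe 1 and 0.58 (adjusted p = 0.0412) for Cd84 probe 1, whose call was lost when any 1 of 12 arrays was left out. Deficient arrays were lower than wild-type arrays on slide 1 for all 5 probes.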

How the results depend on the processing

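Alternatives were scaling by the median, quantile normalization, normexp, other filters, dim signals raised to a floor, the authors' table, each slide fitted alone, an additive slide block and leaving out each array. Of probes called over both slides there were 5522 (2493 higher), and 4601 (2751 higher) with median scaling. Slide 1 had 7667 (3020 higher), 2821 (1269 higher) when fitted alone and 3359 (1804 higher) in the authors' table. Slide 2 had 2453 (1199 higher), 3848 when fitted alone, 3951 in the authors' table and 2491 (1629 higher) with median scaling. On slide 2 replicate numbers 1, 2 and 3 occur in both genotypes, and the deviations of same-numbered arrays correlated by 0.014, 0.096 and 0.064. Such low values cannot settle whether these arrays are pairs, and the main fit took them as unpaired. With the number as a block slide 2 had 1612 calls. The slide interaction had 4555 (2866 higher), 2818 (1310 higher) with quantile normalization and 2306 without a filter. Slide against slide had 26781 (17475 higher) and 25912 (13230 higher) with median scaling. Without 1 array the counts ran from 4218 to 5597 over both slides, 6037 to 8317 on slide 1, 1437 to 2721 on slide 2 (1437 without wild-type array 1 and 1617 without array 3 of that slide) and 2913 to 4722 for the interaction (2913 without wild-type array 1 of slide 2).

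Of the 15 probes, the 5 that passed the interaction became 3 without a filter, and 3 to 5 without 1 array. The additive block left 1 of the 4 partner genes (Fyn), median scaling lost Fyn alone, and without 1 array 3 to 5 passed. Within 0.5 Mb, 20 of 52 neighbours passed, against 31 of 67, and without 1 array 25 to 32. Ly9 probe 1 turned to -0.12 between the slides with median scaling. Itln1 kept its sign on slide 1 in each alternative, but its size moved. By normexp it was -1.66, -3.78 and -3.0 for probes 1, 2 and 3, against -4.29, -6.66 and -6.05, and in the authors' deposited table -2.88, -4.96 and -5.21. On slide 2 probe 2 was -0.70 by normexp and -0.76 in the authors' deposited table, against -1.67. Probe 3 there was -0.16 by normexp, -0.11 in the authors' deposited table and -2.92 with the replicate number as a block, against -1.47. Probe 1, dim in all arrays of slide 2, was 0.31 with dim signals at the floor. Slamf8 on slide 1 was 1.75 by normexp. Of the probes' genotype differences under these alternatives, 1055 stayed within 1 SD of the value given and 22 did not. Signals near background limit the Itln1, Itlnb and Slamf8 values of slide 2.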
